A study of Macaca mulatta with 10 samples.

Results

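The enzymes that carry glucose to pyruvate and lactate, those that bring pyruvate into the mitochondrion and those of the pentose phosphate branch were followed in the testis of juvenile rhesus macaques (Macaca mulatta) infused with gonadotropins. The gene set was given by name and holds 38 genes. A gene was counted where the deposited table has a locus under exactly that name, and of several loci with 1 name the most abundant was taken. In this way 34 of the 38 genes were found among 26813 loci, of which 13196 stand for a gene symbol. GPI and PFKFB1 had no locus under their own name, and ENO2 and PDHA1 appear only in loci that join them to other gene models, so these 4 genes are not analysed here as members.

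RNA came from the right testis of 10 wild-type juvenile males, 1 library per animal, prepared as stranded total RNA. Vehicle was infused in 3 animals, TP07, TP09 and TP11, which were 24, 14 and 15 months old. FSH and LH, the pituitary gonadotropins that act on Sertoli and Leydig cells, were infused together in pulses for 48 h in TP08, TP10 and TP12, aged 22, 14 and 15 months, and for 96 h in TP15, TP16, TP17 and TP18, all aged 14 months. How long vehicle was given is not stated in the labels. Values below are listed in this order of animals.

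Glycolysis splits glucose into pyruvate and gains ATP without oxygen. Lactate dehydrogenase turns pyruvate into lactate or back, and the pyruvate dehydrogenase complex commits it to the citric acid cycle. The pentose phosphate branch takes phosphorylated glucose off this route to make NADPH, which reductive synthesis of cholesterol and fatty acids uses, and ribose for nucleotides. In the testis, Sertoli cells are known to take up glucose and to release lactate, on which developing germ cells depend, and in rodents FSH raises this lactate output.

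The libraries held 21824233 to 30375928 counts. The 34 genes together took 0.312% ± 0.0142 of each vehicle library (mean ± SD over 3 animals), 0.447% ± 0.028 of the 3 libraries at 48 h and 0.361% ± 0.0125 of the 4 libraries at 96 h. Means below carry the SD over these numbers of animals unless an SE is named. Levels are given as CPM, the count of a locus relative to its library's total, scaled by TMM to correct that total for differences in composition. The summed level of the 34 genes was 2816 to 3092 CPM in vehicle animals, 4132 to 4804 CPM at 48 h and 3652 to 3994 CPM at 96 h, and no group overlapped another. The tissue is a mixture of cells, so a change in the share of a cell type and a change in RNA per cell cannot be told apart. Of the marker lists, the summed level of 5 measured Leydig cell markers was 182 to 334 CPM in vehicle animals, 1571 to 1936 CPM at 48 h and 1169 to 1486 CPM at 96 h, and that of 7 germ cell markers was 327 to 358 CPM in vehicle animals, 166 to 206 CPM at 48 h and 172 to 229 CPM at 96 h. The sum of 8 Sertoli cell markers overlapped between groups, at 1549 to 1988 CPM in vehicle animals, 1765 to 2309 CPM at 48 h and 1655 to 2023 CPM at 96 h. The markers AMH and INHA held most of this sum. AMH overlapped, at 760 to 1215 CPM in vehicle animals, 697 to 848 CPM at 48 h and 715 to 1004 CPM at 96 h. INHA, CLDN11 and DHH had every 48 h animal above every vehicle animal, and the other Sertoli markers did not. The sum of 4 markers of dividing cells was 96.1 to 205 CPM in vehicle animals, 168 to 313 CPM at 48 h and 639 to 779 CPM at 96 h. No measured marker of these cell types was at 0 counts in any library. How much of the changes below came with these shifts was not tested.

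After 48 h of gonadotropin, transcripts for most steps of the route from glucose to pyruvate were more abundant than in vehicle. Of the 34 genes, 22 rose and 0 fell at an adjusted p below 0.05 (edgeR, adjusted over all loci). Among all 13196 loci that stand for a symbol, 14.8% rose and 3.21% fell. Among the 9938 of these with at least the mean count of the least abundant member, 18.5% rose and 3.62% fell. The median log2 fold change of the members was 0.54, against 0.08 for the loci that stand for a symbol. In 24 members every 48 h animal lay above every vehicle animal, and in 3 every one lay below, a pattern found in 29.2% and 12.8% of the loci that stand for a symbol. At an unadjusted p below 0.05, 25 members differed in either direction, and 7489 of all 26813 loci did. Without both animals over 20 months, 10 members rose, and with upper-quartile scaling 14 rose.

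After 96 h, 16 members rose and LDHC fell. The members' median was 0.34 on the log2 scale, against 0.08 for the loci that stand for a symbol. The shares over those loci were 17.2% raised and 6.66% lowered, and over the more abundant ones 21% and 5.29%. In 20 members the 96 h animals all lay above the vehicle animals and in 2 all lay below, against 24.8% and 12.7% of loci. With age class as a block 10 members rose and 0 fell, and without both animals over 20 months 12 rose and 0 fell. Both comparisons use the same vehicle animals, so they are not independent of each other. In the direct comparison of 96 h with 48 h, 0 members passed the main edgeR test at the adjusted threshold. The shares over loci that stand for a symbol at that threshold were 1.11% higher and 0.455% lower. At an unadjusted p below 0.05, 13 of the 34 members differed in either direction, and 5614 of all 26813 loci did. The median member difference was -0.13, and 9 members had every 96 h animal below every 48 h animal, a pattern found in 11.8% of loci. The reverse was seen in 0 members and 8.14% of loci.

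**Figure D1:**
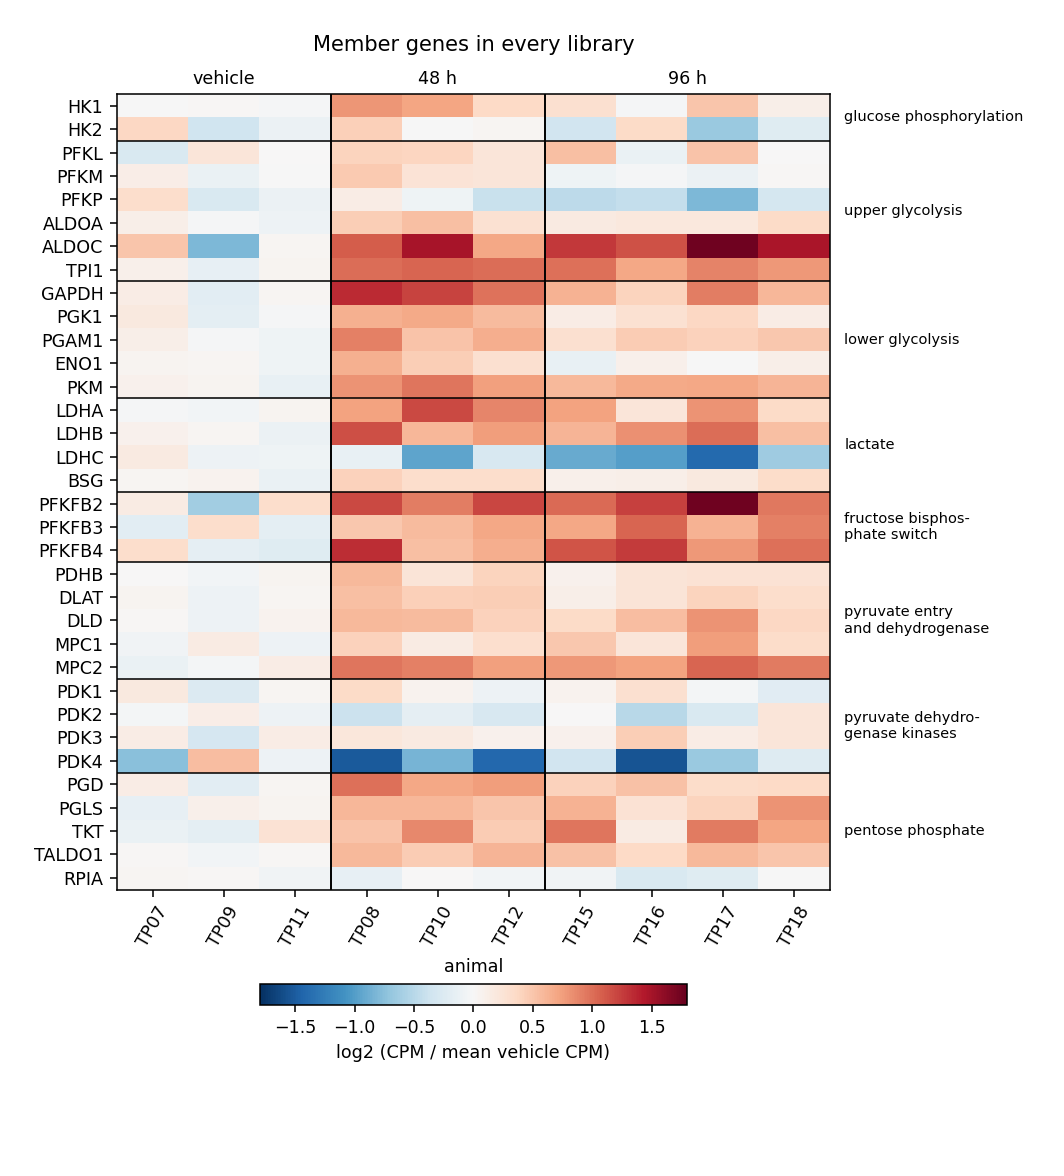
Each cell gives the log2 ratio of a member's CPM in an animal to its mean in the 3 vehicle animals; genes are ordered by pathway step and animals by group. Red cells fill most rows of glycolysis, lactate and the fructose bisphosphate switch at 48 h, while LDHC and PDK4 are blue in most infused animals.

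**Figure D2:**
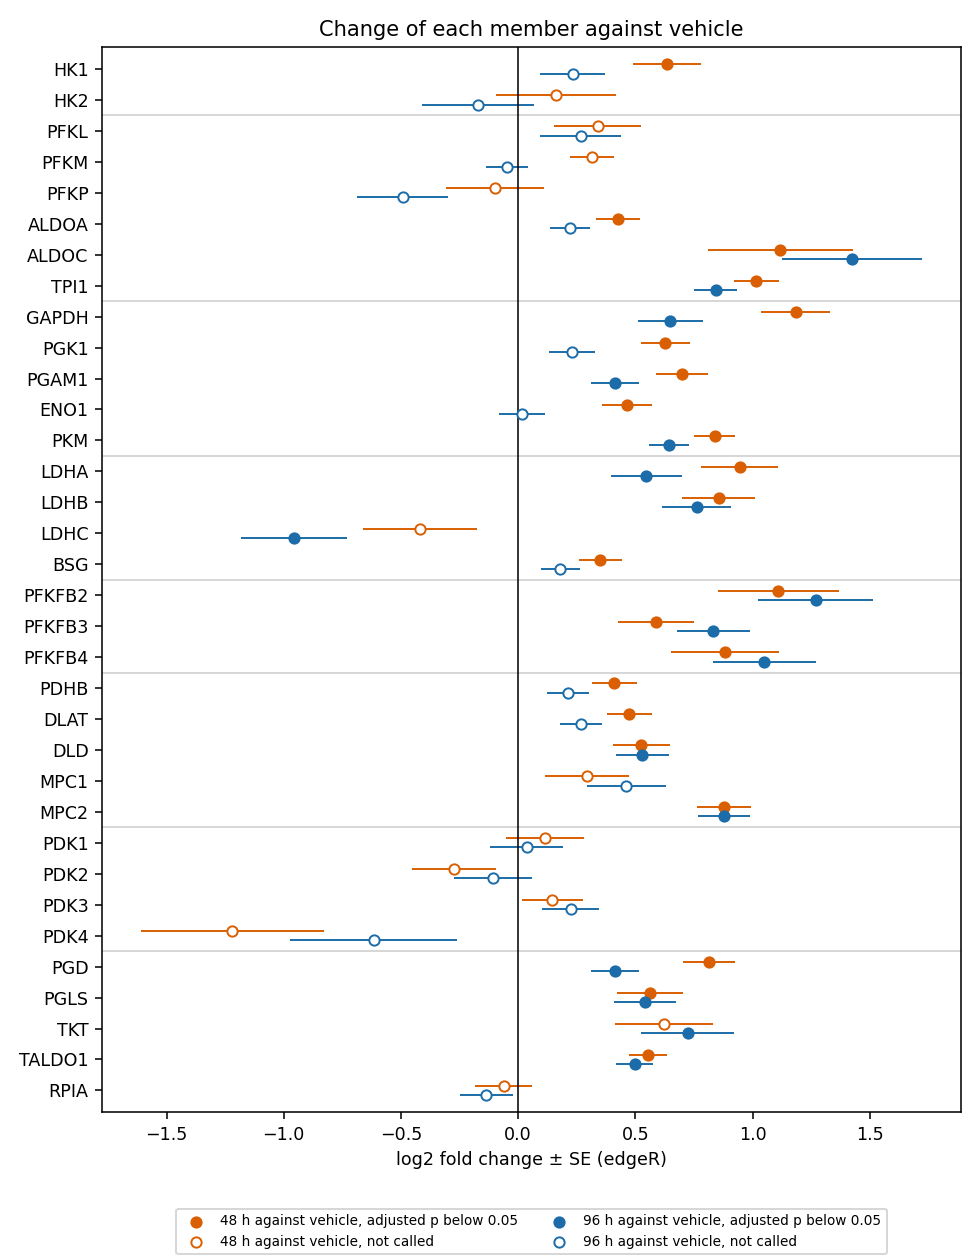
Log2 fold change against vehicle with its SE from edgeR for each member, at 48 h (orange) and 96 h (blue); filled points passed at an adjusted p below 0.05. At 48 h 22 points are filled, all to the right of 0, and at 96 h 17 are filled, with LDHC to the left.

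In the vehicle testis the members covered a wide range of transcript levels. Levels are compared between genes as RPKM, the CPM divided by exon length in kilobases. GAPDH was the most abundant at 255 ± 29.04 RPKM, followed by ENO1 at 228 ± 10.6 RPKM, and their values overlapped within the spread of animals. PGK1 and LDHB came next at 86.2 ± 10.6 and 81.6 ± 5.26 RPKM and did not differ beyond their spread. BSG, PDHB, TALDO1, TPI1 and PKM lay between 42.2 and 65.1 RPKM. At the other end stood PFKFB2, PFKFB4 and ALDOC at 1.88 ± 0.586, 2.09 ± 0.452 and 3.32 ± 1.397 RPKM, with neighbours again within each other's spread. The entry enzymes were modest, with HK2 at 15.2 ± 4.04 and HK1 at 8.08 ± 0.135 RPKM. Across animals of a group the median coefficient of variation of the members was 8.8% in vehicle, 10.4% at 48 h and 13.8% at 96 h.

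Hexokinases trap glucose in the cell by phosphorylating it. HK1, the widely expressed form (chromosome 9, 63055891 to 63187318 on rheMac8), was at 31.3, 32.02 and 30.98 CPM in vehicle animals, 54.4, 51.7 and 40.4 CPM at 48 h and 38.6, 31.04, 44.4 and 33.9 CPM at 96 h. All 48 h animals exceeded the vehicle animals, whereas at 96 h TP16 lay within the vehicle range and the other animals above it. The log2 fold change of HK1 was 0.64 ± 0.15 at 48 h (edgeR adjusted p = 0.0177) and 0.23 ± 0.14 at 96 h (adjusted p = 0.257). HK2, the inducible form of insulin-responsive tissues (chromosome 13, 75841967 to 75926559), was at 172, 104 and 123 CPM in vehicle animals, 178, 132 and 136 CPM at 48 h and 105, 168, 83.9 and 115 CPM at 96 h. TP07, TP08 and TP16 held the highest HK2 levels of their groups and the groups overlapped. HK2 did not pass, with 0.16 at 48 h (edgeR adjusted p = 0.722) and -0.17 at 96 h (adjusted p = 0.649), a sign that turned without TP07. The HK1 call was lost without both animals over 20 months or without TP09, TP11 or TP08 (log2 fold change 0.51 to 0.76 over all alternatives, adjusted p up to 0.156).

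Phosphofructokinase commits the sugar to glycolysis, and none of its 3 genes passed the test in either comparison with vehicle. PFKL, the liver-type subunit, was at 44.02, 61.8 and 53.3 CPM in vehicle animals, 70.3, 69.5 and 61.5 CPM at 48 h and 76.97, 49.1, 75.97 and 53.3 CPM at 96 h. Its groups overlapped, with TP16 and TP18 among the vehicle values. The log2 fold change was 0.34 ± 0.19 at 48 h (edgeR adjusted p = 0.259) and 0.27 ± 0.17 at 96 h (adjusted p = 0.304). PFKM, the muscle-type subunit (chromosome 11, 46330909 to 46378344), was at 109, 91.98 and 99.4 CPM in vehicle animals, 139, 119 and 116 CPM at 48 h and 94.7, 98.2, 93.03 and 101 CPM at 96 h. The 48 h animals all stood above the vehicle and the 96 h animals, while the latter groups overlapped. PFKM gave 0.32 ± 0.09 at 48 h (edgeR adjusted p = 0.0506) and -0.05 ± 0.09 at 96 h (adjusted p = 0.734), and at 48 h it passed without TP07 and with RLE scaling or DESeq2, among other settings. PFKP, the platelet-type subunit, was the least abundant of the family at 14.2, 9.46 and 10.6 CPM in vehicle animals, 12.5, 10.9 and 8.64 CPM at 48 h and 8.28, 8.502, 6.53 and 9.13 CPM at 96 h. All 96 h animals lay below the vehicle animals, and the 48 h animals overlapped both. Its values were -0.10 ± 0.21 at 48 h (edgeR adjusted p = 0.796) and -0.49 ± 0.20 at 96 h (adjusted p = 0.102).

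The bifunctional PFKFB enzymes make and remove the fructose bisphosphate signal that activates phosphofructokinase, and all 3 measured genes of the family rose at both times. PFKFB2, the heart-type form (chromosome 1, 159526300 to 159573416), was at 20.7, 12.1 and 23.3 CPM in vehicle animals, 42.8, 35.4 and 43.1 CPM at 48 h and 37.9, 44.1, 62.7 and 36.01 CPM at 96 h. Every infused animal exceeded every vehicle animal, with the highest value in TP17. The log2 fold change was 1.11 ± 0.26 at 48 h (edgeR adjusted p = 0.0193) and 1.27 ± 0.25 at 96 h (adjusted p = 0.00771). PFKFB3, the inducible form with strong kinase activity (chromosome 9, 6075203 to 6166498), was at 15.4, 21.9 and 15.5 CPM in vehicle animals, 24.5, 26.2 and 28.5 CPM at 48 h and 28.5, 36.5, 27.2 and 33.03 CPM at 96 h. Infused and vehicle animals again did not overlap, although TP09 came close to the 48 h range. PFKFB3 gave 0.59 ± 0.16 at 48 h (edgeR adjusted p = 0.0389) and 0.83 ± 0.16 at 96 h (adjusted p = 0.00569). PFKFB4, first described in testis (chromosome 2, 93890590 to 93933150), was at 11.4, 8.14 and 7.79 CPM in vehicle animals, 22.8, 13.3 and 14.3 CPM at 48 h and 19.95, 21.7, 15.6 and 18.1 CPM at 96 h. No vehicle animal reached the infused range, and TP08 and TP16 were highest. Its values were 0.88 ± 0.23 at 48 h (edgeR adjusted p = 0.0304) and 1.05 ± 0.22 at 96 h (adjusted p = 0.0101). These transcripts were scarce, with vehicle levels of 1.88 to 3.37 RPKM. The 3 genes were 0.16 to 0.25 higher at 96 h than at 48 h on the log2 scale, and none passed that comparison. The 48 h calls were the less steady ones. PFKFB2 lost its call without both animals over 20 months or without TP08 or TP12 (log2 fold change 0.88 to 1.30 over all alternatives, adjusted p up to 0.121). PFKFB3 lost its call with upper-quartile scaling, without both animals over 20 months or without TP07, TP11, TP08, TP10, TP12 or TP18 (log2 fold change 0.46 to 0.78 over all alternatives, adjusted p up to 0.18). PFKFB4 lost its call with upper-quartile scaling, without both animals over 20 months or without TP09, TP11 or TP08 (log2 fold change 0.60 to 1.07 over all alternatives, adjusted p up to 0.124). At 96 h PFKFB3 alone of the 3 lost its call, with age class as a block (adjusted p = 0.0631).

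Aldolase and triosephosphate isomerase split the sugar and interconvert its triose products. ALDOA, the main aldolase by level, was at 112 to 127 CPM in vehicle animals, 144 to 173 CPM at 48 h and 132 to 150.4 CPM at 96 h. It rose at 48 h by 0.43 ± 0.09 (edgeR adjusted p = 0.0136) and did not pass at 96 h, with 0.22 ± 0.09 (edgeR adjusted p = 0.101). ALDOC, the brain-type aldolase (chromosome 16, 22580718 to 22584870), was scarce and was at 9.51, 3.83 and 6.88 CPM in vehicle animals, 14.3, 18.9 and 10.9 CPM at 48 h and 16.3, 14.9, 22.7 and 18.7 CPM at 96 h. All infused animals lay above the vehicle animals, among which TP09 was lowest. ALDOC had the highest 96 h fold change of the members, with 1.12 ± 0.31 at 48 h (edgeR adjusted p = 0.0391) and 1.43 ± 0.30 at 96 h (adjusted p = 0.0102). TPI1, the isomerase (chromosome 11, 7175780 to 7179811), was at 108, 91.98 and 105 CPM in vehicle animals, 203, 211 and 203 CPM at 48 h and 202, 165, 188 and 174 CPM at 96 h. The 48 h animals were nearly equal to each other and the 96 h animals lay between both groups without overlap. TPI1 rose by 1.02 ± 0.10 at 48 h (edgeR adjusted p = 0.000367) and 0.84 ± 0.09 at 96 h (adjusted p = 0.000376), with a call under every alternative tried. The 48 h call of ALDOA was lost with upper-quartile scaling, without both animals over 20 months or without TP09, TP11 or TP08 (log2 fold change 0.30 to 0.49 over all alternatives, adjusted p up to 0.0716). That of ALDOC was lost with upper-quartile scaling, in a fit of the compared groups alone, with age class as a block, without both animals over 20 months or without TP09, TP11, TP08, TP10, TP15 or TP18 (log2 fold change 0.84 to 1.47 over all alternatives, adjusted p up to 0.114), and its 96 h call was lost with age class as a block (adjusted p = 0.067).

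The share of aldolase transcript per exonic length that came from ALDOC was 12.8%, 6.03% and 10.8% in vehicle animals, 14.8%, 17.6% and 12.9% at 48 h and 19.5%, 17.8%, 24.8% and 19.6% at 96 h. The groups did not overlap, and the 96 h animals were highest. A ratio of 2 genes within a library does not depend on how libraries are scaled. The log2 ratio of ALDOC to ALDOA was 0.76 higher at 48 h than in vehicle (two-sided exact permutation p = 0.1, the smallest that 3 against 3 animals allow). At 96 h it was 1.28 higher than in vehicle and 0.53 higher than at 48 h (exact permutation p = 0.0571 for each, the smallest that 3 against 4 allow). Adjusted over the 18 ratio tests made, these p-values became 0.36, 0.343 and 0.343, so none passed.

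In lower glycolysis, where ATP is recovered, all 5 measured enzymes rose at 48 h and GAPDH, PGAM1 and PKM rose at 96 h. GAPDH, which oxidises the triose (chromosome 11, 6772044 to 6775866), was at 371, 296 and 346 CPM in vehicle animals, 859, 781 and 662 CPM at 48 h and 521, 445, 642 and 509 CPM at 96 h. The 48 h animals lay highest, the 96 h animals lay between and the vehicle animals lowest, with no overlap. GAPDH had the highest 48 h fold change of the members, 1.19 ± 0.15 at 48 h (edgeR adjusted p = 0.00106) and 0.65 ± 0.14 at 96 h (adjusted p = 0.0107). PGK1, the kinase that recovers ATP after GAPDH (chromosome X, 71948984 to 71971874), was at 176, 138 and 153 CPM in vehicle animals, 241, 249 and 231 CPM at 48 h and 171, 188, 201 and 170.0 CPM at 96 h. The 48 h range stood clear of the others, and TP15 and TP18 fell within the vehicle range. PGK1 gave 0.63 ± 0.10 at 48 h (edgeR adjusted p = 0.004) and 0.23 ± 0.10 at 96 h (adjusted p = 0.123). PGAM1, the mutase, was at 64.7, 59.2 and 56.9 CPM in vehicle animals, 114, 85.7 and 94.4 CPM at 48 h and 73.8, 82.7, 80.2 and 84.6 CPM at 96 h. No group overlapped another, with 48 h highest. Its values were 0.70 ± 0.11 at 48 h (edgeR adjusted p = 0.00305) and 0.41 ± 0.10 at 96 h (adjusted p = 0.0213).

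ENO1, the main enolase (chromosome 1, 8019458 to 8036334), was at 449.7, 446 and 413 CPM in vehicle animals, 680.0, 594 and 531 CPM at 48 h and 396, 465, 436 and 468 CPM at 96 h. The 48 h animals stood above all others, and the 96 h animals overlapped the vehicle animals, with 0.46 ± 0.11 at 48 h (edgeR adjusted p = 0.0174) and 0.02 ± 0.10 at 96 h (adjusted p = 0.923). The small 96 h value was negative with upper-quartile scaling, with the stricter count minimum and without TP11, TP16 or TP18. PKM, pyruvate kinase (chromosome 7, 49211765 to 49245983), was at 183, 180.0 and 158 CPM in vehicle animals, 305, 337 and 289 CPM at 48 h and 260.0, 279, 281 and 266 CPM at 96 h. Its groups did not overlap, and replicates agreed closely at 96 h. PKM rose by 0.84 ± 0.09 at 48 h (edgeR adjusted p = 0.000555) and 0.64 ± 0.08 at 96 h (adjusted p = 0.000922). The 48 h call of ENO1 was lost with upper-quartile scaling, without both animals over 20 months or without TP09, TP11 or TP08 (log2 fold change 0.34 to 0.55 over all alternatives, adjusted p up to 0.135). The 96 h call of PGAM1 was lost with upper-quartile scaling or without TP09 or TP11 (log2 fold change 0.27 to 0.52 over all alternatives, adjusted p up to 0.0986). GAPDH, PKM and TPI1 kept their calls at both times under all 20 alternatives, and PGK1 and PGAM1 kept theirs at 48 h. These 20 include a fit without a count filter, which equals the main fit because the filter removed no locus. Several of these genes, GAPDH among them, are known to have processed pseudogenes in primates, and how reads shared with such copies were counted is not given in the sources used here.

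**Figure D3:**
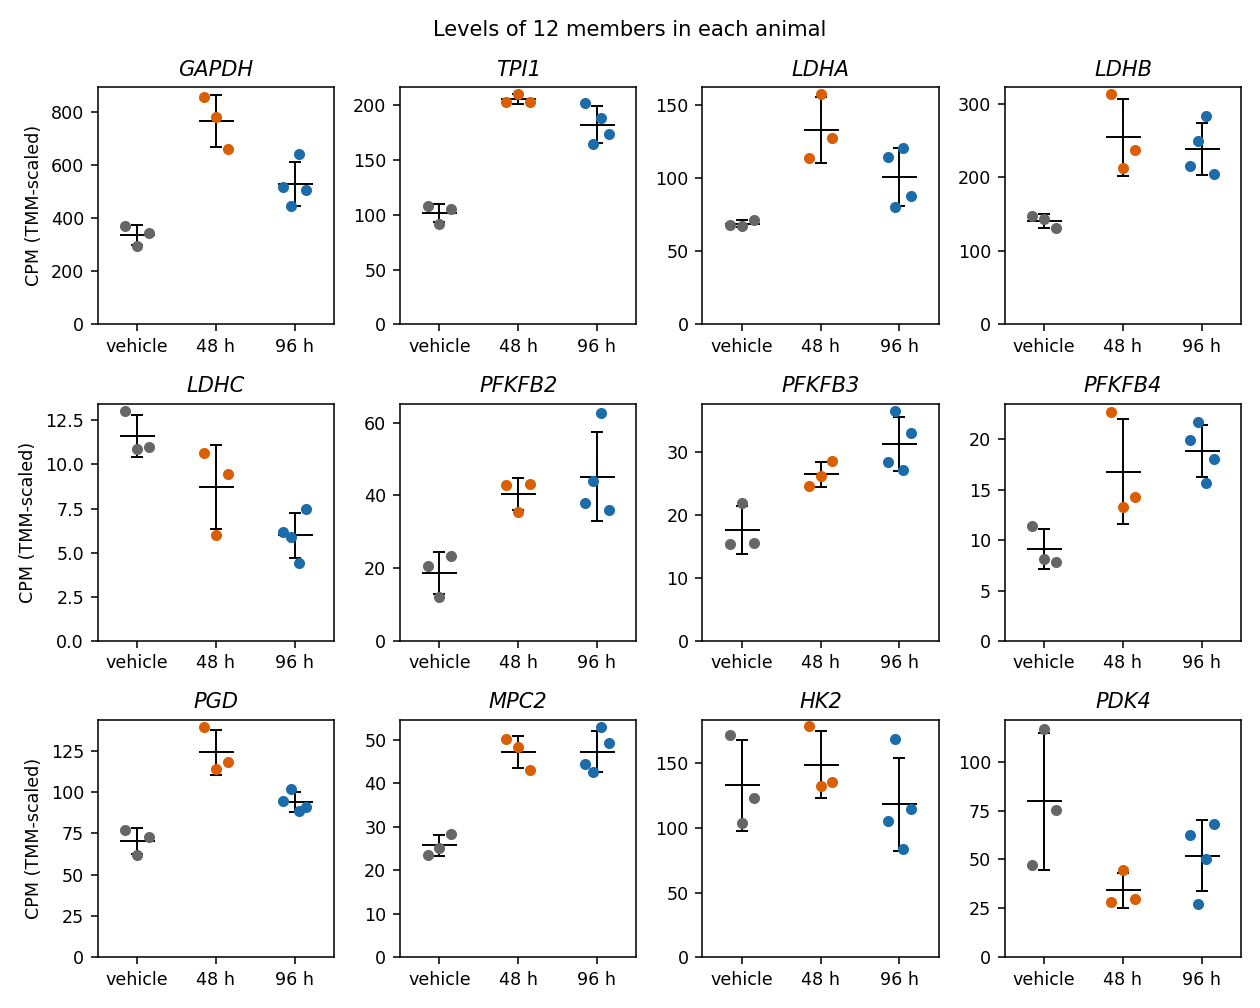
CPM in each animal (points) with the group mean and SD for 12 members; every axis starts at 0. GAPDH, PGD and TPI1 are highest at 48 h, the 3 PFKFB genes have their highest means at 96 h, and HK2 and PDK4 overlap between vehicle and 96 h.

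The step from 48 h to 96 h gave negative differences for much of this route, none of which passed the test. The 9 members whose 96 h animals all lay below the 48 h animals were PFKM, TPI1, GAPDH, PGK1, PGAM1, ENO1, PKM, DLAT and PGD, so all 5 measured enzymes of lower glycolysis were among them. GAPDH differed by -0.54 ± 0.14 (edgeR adjusted p = 0.086), ENO1 by -0.45 ± 0.10 (edgeR adjusted p = 0.0616) and PGD by -0.40 ± 0.10 (edgeR adjusted p = 0.0882). PGK1 differed by -0.40 ± 0.10 (edgeR adjusted p = 0.0786) and PFKM by -0.36 ± 0.09 (edgeR adjusted p = 0.0769). With exactTest 3 members were lower at 96 h and with DESeq2 5 were, and none was higher with either. All 96 h animals carry animal numbers above those of the other groups and all are 14 months old, so a batch by animal number and the longer infusion cannot be told apart. Without both animals over 20 months, 3 of all loci differed between 96 h and 48 h.

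Lactate dehydrogenase and the lactate carrier subunit BSG complete the route. LDHA, whose tetramer favours lactate formation (chromosome 14, 47938475 to 47951842), was at 68.2, 66.95 and 71.7 CPM in vehicle animals, 114, 158 and 127 CPM at 48 h and 114, 80.5, 121 and 87.6 CPM at 96 h. All infused animals exceeded the vehicle animals, and TP16 and TP18 were the lowest of them. LDHA rose by 0.95 ± 0.16 at 48 h (edgeR adjusted p = 0.00478) and 0.55 ± 0.15 at 96 h (adjusted p = 0.0331). LDHB, whose tetramer favours the return to pyruvate (chromosome 11, 22528606 to 22551785), was at 148, 143 and 130.4 CPM in vehicle animals, 313, 213 and 237 CPM at 48 h and 216, 249.6, 283 and 204 CPM at 96 h. Infused animals lay above vehicle animals, and the ranges at 48 h and 96 h overlapped. LDHB rose by 0.86 ± 0.16 at 48 h (edgeR adjusted p = 0.00584) and 0.76 ± 0.15 at 96 h (adjusted p = 0.00676). LDHC, the form of male germ cells (chromosome 14, 47884738 to 47933978), was at 13.01, 10.9 and 10.98 CPM in vehicle animals, 10.6, 6.03 and 9.48 CPM at 48 h and 6.197, 5.86, 4.403 and 7.48 CPM at 96 h. Every infused animal lay below every vehicle animal, and TP17 was lowest. LDHC fell at 96 h and did not pass at 48 h, with -0.42 ± 0.24 at 48 h (edgeR adjusted p = 0.292) and -0.96 ± 0.23 at 96 h (adjusted p = 0.0174). BSG, which escorts monocarboxylate carriers to the membrane, was at 99.8 to 113 CPM in vehicle animals, 134 to 145 CPM at 48 h and 115 to 136 CPM at 96 h. It rose at 48 h by 0.35 ± 0.09 (edgeR adjusted p = 0.0274) and gave 0.18 ± 0.08 at 96 h (edgeR adjusted p = 0.157).

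LDHB kept its call at both times under all 20 alternatives, and LDHA did so at 48 h. The 96 h call of LDHA was lost with upper-quartile scaling, with age class as a block, without both animals over 20 months or without TP07, TP09, TP11, TP15 or TP17 (log2 fold change 0.39 to 0.63 over all alternatives, adjusted p up to 0.248). The fall of LDHC was lost with age class as a block, without both animals over 20 months or without TP07 (log2 fold change -1.10 to -0.68 over all alternatives, adjusted p up to 0.154). The 48 h call of BSG was lost with upper-quartile scaling, without both animals over 20 months or without TP07, TP09, TP11, TP08, TP10 or TP12 (log2 fold change 0.23 to 0.39 over all alternatives, adjusted p up to 0.169). Germ cell markers were lower too: 2 of 7 fell at 48 h and 5 of 7 at 96 h, against 3.21% and 6.66% of loci that stand for a symbol. DAZL was at 89.2 ± 17.9 CPM in vehicle, 49.1 ± 8.25 CPM at 48 h and 53.4 ± 7.25 CPM at 96 h (edgeR adjusted p = 0.0098 and 0.012). GFRA1 was at 54.6 ± 8.89 CPM in vehicle, 17.1 ± 3.97 CPM at 48 h and 26.7 ± 6.85 CPM at 96 h (edgeR adjusted p = 0.00181 and 0.00918). Both had their lowest mean at 48 h, as did ZBTB16 and SYCP3, which did not pass. LDHC had its lowest mean at 96 h, as did DDX4, MAEL and KIT. In vehicle, 48 h and 96 h DDX4 was at 73.9 ± 7.30, 53.2 ± 9.98 and 41.3 ± 9.47 CPM. In the same order MAEL was at 36.8 ± 3.69, 26.6 ± 5.07 and 17.9 ± 5.51 CPM. KIT was at 28.4 ± 8.59, 18.7 ± 3.34 and 15.1 ± 2.55 CPM. Of the 5 falls at 96 h, only that of GFRA1 stayed with age class as a block and without both animals over 20 months (edgeR adjusted p = 0.016 and 0.018). In the block fit DDX4, DAZL, MAEL and KIT had adjusted p = 0.125, 0.125, 0.122 and 0.211. The part of germ cell markers in the fall of LDHC was not tested. LDHA and LDHC lie next to each other on chromosome 14, on the same strand and 4496 bases apart, and their values went opposite ways.

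Per exonic length, LDHB made up most of the lactate dehydrogenase transcript in all animals. Its share was 67.3% ± 1.83 in vehicle, 68.3% ± 6.84 at 48 h and 73.2% ± 3.78 at 96 h, as mean ± SD. The LDHA share was 26.3% ± 1.91, 29% ± 7.3 and 24.6% ± 3.68 in the same order. LDHC supplied 6.85%, 5.95% and 6.27% of the family in vehicle animals, 2.92%, 2.0% and 3.11% at 48 h and 2.26%, 2.09%, 1.31% and 3.02% at 96 h. LDHC shares in the infused animals stood below all vehicle shares. The log2 ratio of LDHC to LDHA was -1.39 at 48 h and -1.50 at 96 h relative to vehicle (exact permutation p = 0.1 and 0.0571, adjusted 0.36 and 0.343). The LDHB to LDHA ratio differed from vehicle by -0.10 and 0.22 (exact permutation p = 0.8 and 0.286), with overlapping animals. For HK2 to HK1 the differences were -0.44 and -0.41 (exact permutation p = 0.3 and 0.4). PFKP to PFKL gave -0.44 and -0.73 (exact permutation p = 0.3 and 0.171), and PFKM to PFKL gave -0.04 and -0.30 (exact permutation p = 1.0 and 0.4).

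**Figure D4:**
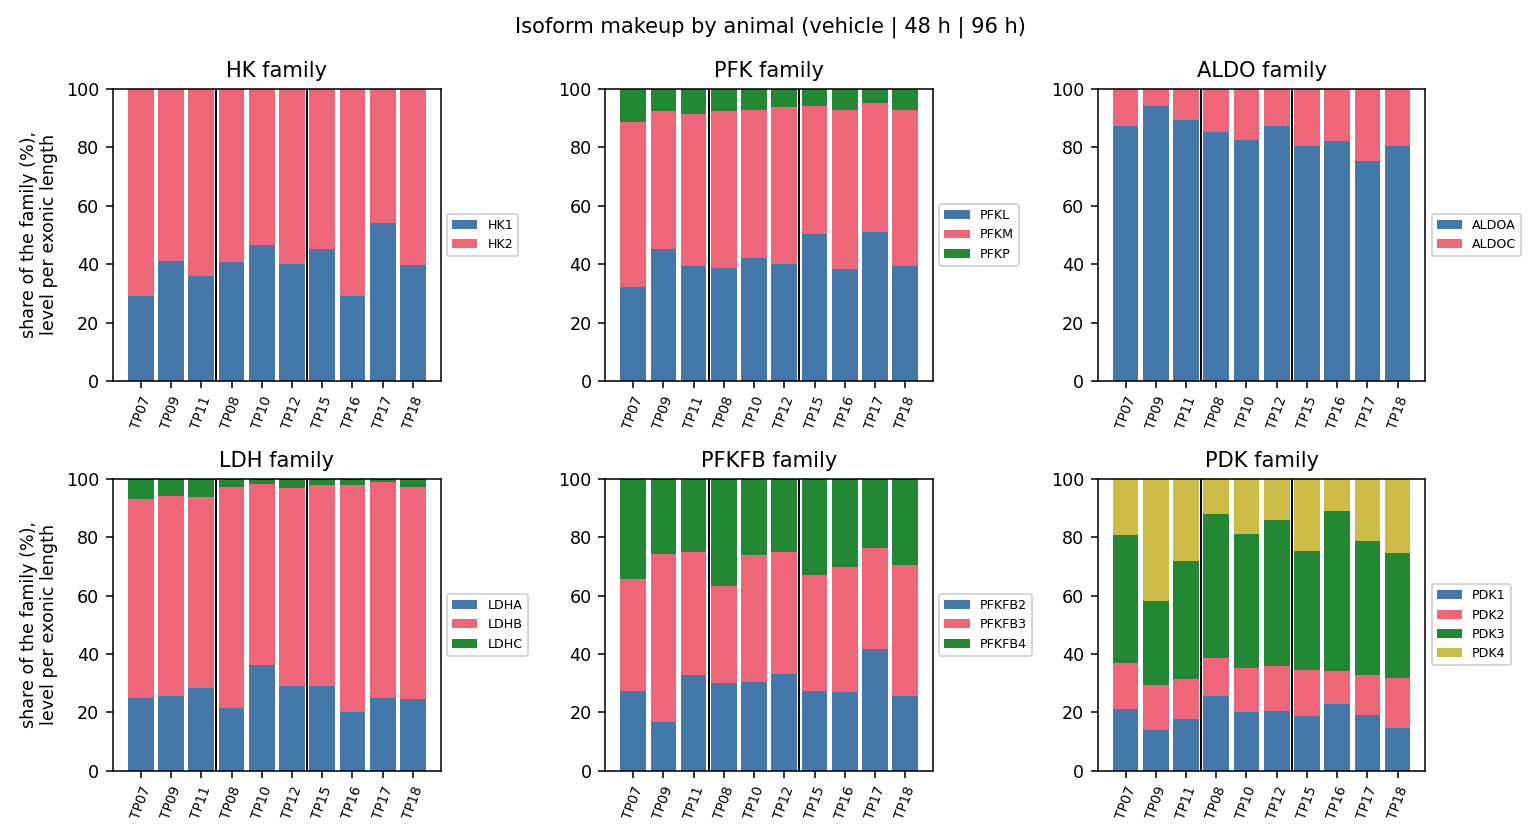
Stacked bars give each measured isoform's share of its family's transcript level per exonic length in every animal, with vertical lines between vehicle, 48 h and 96 h. The ALDOC share is highest in the 96 h animals, the LDHC share is highest in the vehicle animals, and LDHB is the largest part of its family in each animal.

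Pyruvate enters the mitochondrion through the carrier made of MPC1 and MPC2 and is then oxidised by the pyruvate dehydrogenase complex. MPC2 (chromosome 1, 199755141 to 199773060) was at 23.6, 25.2 and 28.3 CPM in vehicle animals, 50.2, 48.2 and 43.04 CPM at 48 h and 44.3, 42.6, 52.99 and 49.1 CPM at 96 h. Vehicle and infused animals were far apart, and the ranges at 48 h and 96 h overlapped. MPC2 rose by 0.88 ± 0.12 at 48 h (edgeR adjusted p = 0.00131) and 0.88 ± 0.11 at 96 h (adjusted p = 0.000708), under every alternative. Its partner MPC1 was at 7.08 to 8.304 CPM in vehicle animals, 8.298 to 10.02 CPM at 48 h and 8.72 to 12.7 CPM at 96 h and did not pass, with 0.29 ± 0.18 at 48 h (edgeR adjusted p = 0.317) and 0.46 ± 0.17 at 96 h (adjusted p = 0.0819). Per length MPC1 was at 15.6 ± 1.4, 19.1 ± 1.79 and 21.5 ± 3.59 RPKM and MPC2 at 25.5 ± 2.39, 46.9 ± 3.68 and 46.97 ± 4.7 RPKM in vehicle, 48 h and 96 h. DLD, the dehydrogenase subunit that regenerates the lipoyl group (chromosome 3, 133296097 to 133326664), was at 64.1, 59.6 and 65.8 CPM in vehicle animals, 94.5, 93.98 and 84.5 CPM at 48 h and 80.4, 92.7, 110.3 and 81.5 CPM at 96 h. Infused animals all lay above vehicle animals, with TP17 highest. DLD rose by 0.53 ± 0.12 at 48 h (edgeR adjusted p = 0.0168) and 0.53 ± 0.11 at 96 h (adjusted p = 0.0109).

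PDHB, the beta subunit of the dehydrogenase, was at 82.4 to 88.2 CPM in vehicle animals, 100.3 to 128 CPM at 48 h and 90.3 to 103 CPM at 96 h, and DLAT, the acetyltransferase core, was at 43.2 to 47.7 CPM in vehicle animals, 62.1 to 67.1 CPM at 48 h and 49.5 to 60.8 CPM at 96 h. Both rose at 48 h, PDHB by 0.41 ± 0.10 (edgeR adjusted p = 0.0196) and DLAT by 0.47 ± 0.10 (edgeR adjusted p = 0.00943). Neither passed at 96 h, with 0.21 ± 0.09 (edgeR adjusted p = 0.128) and 0.27 ± 0.09 (adjusted p = 0.0613), although no 96 h animal overlapped the vehicle animals for either gene. The 48 h call of PDHB was lost with upper-quartile scaling, without both animals over 20 months or without TP07, TP09, TP08 or TP12 (log2 fold change 0.28 to 0.49 over all alternatives, adjusted p up to 0.163). That of DLAT was lost without both animals over 20 months (log2 fold change 0.35 to 0.52 over all alternatives, adjusted p up to 0.0825). DLD lost its 48 h call without both animals over 20 months or without TP09 or TP08 (log2 fold change 0.40 to 0.58 over all alternatives, adjusted p up to 0.128) and its 96 h call with age class as a block or without both animals over 20 months (log2 fold change 0.38 to 0.59 over all alternatives, adjusted p up to 0.0748). A locus that joins PDHA1, the alpha subunit, to an unnamed model was named after its values were seen. It was at 33.9 ± 4.96, 47.7 ± 7.08 and 41.2 ± 3.899 CPM, with log2 fold changes of 0.49 at 48 h (edgeR adjusted p = 0.0452) and 0.28 at 96 h (adjusted p = 0.164). Its reads cannot be divided between the models.

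The pyruvate dehydrogenase kinases switch the complex off by phosphorylation, and none of the 4 passed the main edgeR test in any comparison. PDK4, the kinase induced by fasting and fatty acids (chromosome 3, 120933877 to 120950191), was at 47.3, 117 and 75.1 CPM in vehicle animals, 28.1, 44.7 and 29.9 CPM at 48 h and 62.7, 27.1, 50.01 and 68.1 CPM at 96 h. All 48 h animals lay below all vehicle animals, in which TP09 held more than the others, and the 96 h animals overlapped both groups. PDK4 gave -1.22 ± 0.39 at 48 h (edgeR adjusted p = 0.0727) and -0.62 ± 0.36 at 96 h (adjusted p = 0.252). At 48 h it passed without TP07 (adjusted p = 0.0419), without TP16 (0.0372), with a mean of at least 50 counts, with exactTest and with DESeq2. In the authors' deposited table its 48 h log2 fold change was -1.22 with an FDR of 0.00464. PDK1, a hypoxia-responsive kinase, was at 24.01, 17.9 and 21.8 CPM in vehicle animals, 27.01, 22.3 and 19.9 CPM at 48 h and 22.2, 25.9, 20.7 and 18.4 CPM at 96 h. The groups overlapped, and its values were 0.12 ± 0.17 at 48 h (edgeR adjusted p = 0.691) and 0.04 ± 0.16 at 96 h (adjusted p = 0.891). PDK2, a broadly expressed kinase, was at 16.6, 18.5 and 16.1 CPM in vehicle animals, 13.1, 15.3 and 14.01 CPM at 48 h and 17.2, 12.1, 14.2 and 19.8 CPM at 96 h. Each 48 h animal lay below the vehicle animals, while the 96 h animals spread around them. PDK2 gave -0.27 ± 0.18 at 48 h (edgeR adjusted p = 0.347) and -0.11 ± 0.17 at 96 h (adjusted p = 0.675). PDK3, encoded on the X chromosome (23903522 to 23992255), was at 284, 209 and 282 CPM in vehicle animals, 296, 288 and 273 CPM at 48 h and 272, 350.2, 284 and 301 CPM at 96 h. TP09 was the lowest animal and TP16 the highest, with overlap throughout. PDK3 gave 0.15 ± 0.13 at 48 h (edgeR adjusted p = 0.498) and 0.23 ± 0.12 at 96 h (adjusted p = 0.216), and per length it supplied 37.6% ± 7.98 of the family in vehicle, 48.3% ± 1.91 at 48 h and 46% ± 6.09 at 96 h.

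In the pentose phosphate branch, 3 of 5 measured members rose at 48 h and 4 of 5 at 96 h. PGLS, the lactonase of the oxidative arm (chromosome 19, 17453168 to 17462008), was at 20.4, 24.03 and 23.3 CPM in vehicle animals, 34.2, 34.1 and 31.8 CPM at 48 h and 34.8, 27.1, 29.9 and 39.5 CPM at 96 h. No infused animal overlapped the vehicle animals. PGLS rose by 0.56 ± 0.14 at 48 h (edgeR adjusted p = 0.0241) and 0.54 ± 0.13 at 96 h (adjusted p = 0.0193). PGD, which yields NADPH and a pentose (chromosome 1, 9646058 to 9666489), was at 77.4, 61.7 and 72.7 CPM in vehicle animals, 139.8, 114 and 119 CPM at 48 h and 94.5, 102, 88.8 and 90.8 CPM at 96 h. The 48 h animals were highest and no groups overlapped. PGD rose by 0.81 ± 0.11 at 48 h (edgeR adjusted p = 0.00145) and 0.41 ± 0.10 at 96 h (adjusted p = 0.0213). TALDO1, transaldolase of the non-oxidative arm (chromosome 14, 593356 to 612209), was at 75.2, 71.7 and 74.8 CPM in vehicle animals, 111, 102 and 113 CPM at 48 h and 107, 94.4, 111 and 105 CPM at 96 h. Infused animals lay clear of the vehicle animals, whose values were nearly equal. TALDO1 rose by 0.55 ± 0.08 at 48 h (edgeR adjusted p = 0.00235) and 0.50 ± 0.08 at 96 h (adjusted p = 0.0025).

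TKT, transketolase of the same arm (chromosome 2, 88905995 to 88938175), was at 55.8, 53.8 and 72.3 CPM in vehicle animals, 86.4, 111 and 82.9 CPM at 48 h and 118, 67.1, 117 and 98.9 CPM at 96 h. At 96 h TP16 lay within the vehicle range and the other 3 animals above it. TKT rose at 96 h and did not pass at 48 h, with 0.62 ± 0.21 at 48 h (edgeR adjusted p = 0.0807) and 0.72 ± 0.20 at 96 h (adjusted p = 0.032). RPIA, the isomerase that makes ribose phosphate, was at 16.1 to 17.2 CPM in vehicle animals, 15.1 to 16.8 CPM at 48 h and 13.9 to 16.7 CPM at 96 h and gave -0.06 ± 0.12 at 48 h (edgeR adjusted p = 0.782) and -0.14 ± 0.11 at 96 h (adjusted p = 0.431). PGD and TALDO1 kept their 48 h calls and TALDO1 its 96 h call under all 20 alternatives. The 96 h call of PGD was lost with upper-quartile scaling or without TP09 or TP11 (log2 fold change 0.27 to 0.57 over all alternatives, adjusted p up to 0.0995). PGLS lost its 48 h call with upper-quartile scaling, without both animals over 20 months or without TP07, TP09, TP11, TP08, TP10 or TP12 (log2 fold change 0.44 to 0.61 over all alternatives, adjusted p up to 0.193) and its 96 h call with upper-quartile scaling, with age class as a block, without both animals over 20 months or without TP07 or TP11 (log2 fold change 0.39 to 0.62 over all alternatives, adjusted p up to 0.145). TKT lost its 96 h call with upper-quartile scaling, in a fit of the compared groups alone, with age class as a block, without both animals over 20 months or without TP07, TP09, TP15, TP17 or TP18 (log2 fold change 0.57 to 0.87 over all alternatives, adjusted p up to 0.2).

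Other genes of carbohydrate metabolism stood beside the members as lists. Of 24 further carbohydrate enzymes and isoforms, 3 rose and 1 fell at 48 h, and 4 rose and 3 fell at 96 h. Their median log2 fold changes were 0.19 and -0.02. The counts of this list and of the later ones are to be read against the 13196 symbol-bearing loci. At 48 h edgeR called 14.8% of those loci higher and 3.21% lower. At 96 h it called 17.2% higher and 6.66% lower. PGM1, which links glycogen to glycolysis, rose by 0.51 ± 0.13 at 48 h (edgeR adjusted p = 0.0264) and 0.51 ± 0.12 at 96 h (adjusted p = 0.0179). PGAM5, a mitochondrial phosphatase despite its name, rose by 0.75 ± 0.11 at 48 h (edgeR adjusted p = 0.00182) and 0.37 ± 0.10 at 96 h (adjusted p = 0.0294). H6PD, an enzyme of the endoplasmic reticulum, rose at 96 h by 0.79 ± 0.14 (edgeR adjusted p = 0.00421) and gave 0.41 ± 0.14 at 48 h (adjusted p = 0.0911). The 96 h calls of PGAM5 and H6PD were lost with age class as a block (adjusted p = 0.0727 and 0.0533), that of PGAM5 also with upper-quartile scaling and without both animals over 20 months, and those of PGM1 at both times with upper-quartile scaling and without both animals over 20 months.

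TKTL1, a transketolase-like gene, is described here after its values were seen. It was at 276, 217 and 275 CPM in vehicle animals, 236, 135 and 216 CPM at 48 h and 117, 119, 90.5 and 178 CPM at 96 h. All 96 h animals lay below all vehicle animals, and TP17 was lowest. TKTL1 fell at 96 h and gave -0.39 ± 0.26 at 48 h (edgeR adjusted p = 0.356) and -1.02 ± 0.24 at 96 h (adjusted p = 0.0183), whereas TKT rose at 96 h. The 96 h call of TKTL1 was lost with age class as a block (adjusted p = 0.167), without both animals over 20 months (0.0735) or without TP07 or TP11.

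Of 10 measured sugar and lactate carriers, 1 rose and 1 fell at 48 h, and 3 rose and 1 fell at 96 h, with medians of -0.02 and 0.02. SLC16A1, a monocarboxylate carrier that BSG escorts, was at 29.2, 24.1 and 28.6 CPM in vehicle animals, 52.98, 51.8 and 55.2 CPM at 48 h and 39.8, 42.8, 40.04 and 44.3 CPM at 96 h. Its log2 fold change was 0.97 ± 0.10 at 48 h (edgeR adjusted p = 0.000502) and 0.61 ± 0.09 at 96 h (adjusted p = 0.00212). SLC16A3, another carrier of this list, was at 6.65 ± 1.23, 5.52 ± 0.478 and 5.33 ± 1.47 CPM in vehicle, 48 h and 96 h. It did not pass (edgeR adjusted p = 0.519 and 0.36) and was named after its values were seen. SLC2A10 and SLC2A8, members of the glucose carrier family, rose at 96 h by 0.72 ± 0.17 (edgeR adjusted p = 0.0152) and 1.04 ± 0.25 (edgeR adjusted p = 0.0174), and gave 0.35 ± 0.18 and 0.77 ± 0.26 at 48 h (adjusted p = 0.22 and 0.0765). The call of SLC2A10 was lost with age class as a block (adjusted p = 0.152), and both calls without both animals over 20 months. SLC2A4, the insulin-responsive glucose carrier, fell by 1.09 ± 0.30 at 48 h (edgeR adjusted p = 0.0371) and 0.94 ± 0.28 at 96 h (adjusted p = 0.0406) from a low level of 2.49 ± 0.549 CPM. Its call was lost with age class as a block (adjusted p = 0.0537 at 48 h and 0.234 at 96 h) and without both animals over 20 months (0.257 and 0.13), and with single animals left out it was lost in 6 fits at 48 h and 7 at 96 h. SLC2A1, a widely expressed glucose carrier, was at 8.27 ± 1.32 CPM in vehicle, 9.19 ± 1.88 CPM at 48 h and 10.7 ± 1.28 CPM at 96 h and did not pass (edgeR adjusted p = 0.657 and 0.188); it was named after its values were seen.

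The citric acid cycle, which takes up the product of pyruvate dehydrogenase, had 12 of 16 genes higher at 48 h and 10 of 16 at 96 h, 0 lower at either time, and medians of 0.49 and 0.32. MDH2, malate dehydrogenase, rose by 0.91 ± 0.10 at 48 h (edgeR adjusted p = 0.000515) and 0.60 ± 0.09 at 96 h (adjusted p = 0.00188), and CS, citrate synthase, by 0.78 ± 0.09 at 48 h (edgeR adjusted p = 0.00081) and 0.50 ± 0.08 at 96 h (adjusted p = 0.0032). FH, fumarase, rose by 0.66 ± 0.10 at 48 h (edgeR adjusted p = 0.00195) and 0.33 ± 0.09 at 96 h (adjusted p = 0.0283). SDHC, a succinate dehydrogenase subunit, rose by 0.70 ± 0.10 at 48 h (edgeR adjusted p = 0.00221) and gave 0.31 ± 0.10 at 96 h (adjusted p = 0.0508). OGDH, of the oxoglutarate dehydrogenase complex, rose by 0.47 ± 0.10 at 48 h (edgeR adjusted p = 0.00977) and 0.49 ± 0.09 at 96 h (adjusted p = 0.0053), and IDH3G, an isocitrate dehydrogenase subunit, by 0.74 ± 0.11 at 48 h (edgeR adjusted p = 0.00231) and 0.52 ± 0.11 at 96 h (adjusted p = 0.0084).

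Target genes of hypoxia-inducible factors outside the pathway had no member that rose with edgeR. Of 12 measured, 0 rose and 3 fell at 48 h, and 0 rose and 5 fell at 96 h, with medians of -0.34 and -0.09. NDRG1, a stress-responsive gene, fell from 119.8 ± 9.73 to 56.4 ± 2.84 CPM at 48 h and 57.3 ± 15.9 CPM at 96 h, by 1.09 ± 0.20 at 48 h (edgeR adjusted p = 0.00586) and 1.07 ± 0.18 at 96 h (adjusted p = 0.00375). KDM3A, a histone demethylase, fell by 0.39 ± 0.09 at 48 h (edgeR adjusted p = 0.0192) and 0.46 ± 0.09 at 96 h (adjusted p = 0.00559), and P4HA2, a collagen prolyl hydroxylase, by 0.83 ± 0.23 at 48 h (edgeR adjusted p = 0.0452) and 0.99 ± 0.22 at 96 h (adjusted p = 0.0136). ANKRD37 fell at 96 h by 0.90 ± 0.25 (edgeR adjusted p = 0.0324) and gave -0.64 ± 0.27 at 48 h (adjusted p = 0.151). Of the 5 falls at 96 h, only that of NDRG1 was still called with age class as a block (adjusted p = 0.0362), where KDM3A, P4HA2 and ANKRD37 had adjusted p = 0.0576, 0.0759 and 0.265. Without both animals over 20 months 0 of the 3 falls at 48 h were called with edgeR, at adjusted p = 0.0808 for NDRG1, 0.162 for KDM3A and 0.315 for P4HA2. HIF1A itself, a subunit of the factor, rose by 0.48 ± 0.09 at 48 h (edgeR adjusted p = 0.008) and 0.42 ± 0.09 at 96 h (adjusted p = 0.0102).

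Of 10 regulators, 5 rose at 48 h and 4 at 96 h, and 0 fell. MYC, a transcription factor that activates several glycolytic genes, was at 14.9, 16.9 and 15.7 CPM in vehicle animals, 40.2, 42.5 and 37.7 CPM at 48 h and 42.8, 30.97, 36.95 and 24.2 CPM at 96 h. It rose by 1.34 ± 0.18 at 48 h (edgeR adjusted p = 0.00133) and 1.09 ± 0.17 at 96 h (adjusted p = 0.00227). ESRRA, an orphan nuclear receptor of energy metabolism, rose at 48 h by 0.64 ± 0.10 (edgeR adjusted p = 0.00293) and gave 0.26 ± 0.09 at 96 h (adjusted p = 0.0754). CAD, which is an enzyme of pyrimidine synthesis and no regulator, rose by 0.50 ± 0.11 at 48 h (edgeR adjusted p = 0.0143) and 0.64 ± 0.10 at 96 h (adjusted p = 0.00292).

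**Figure D5:**
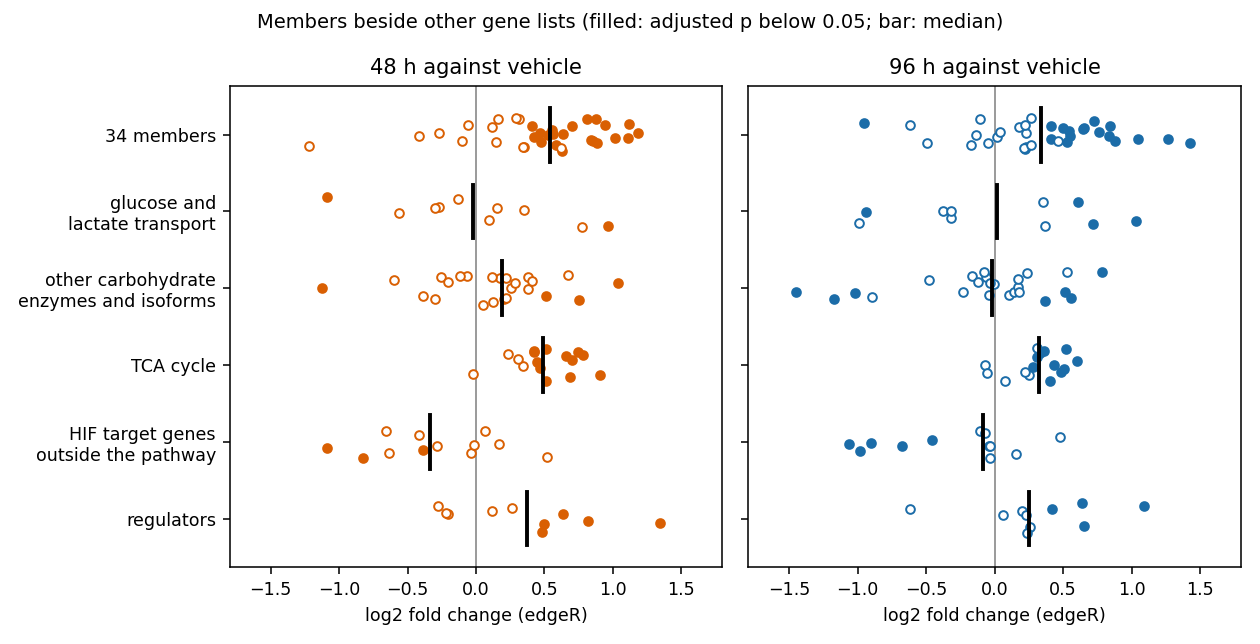
Log2 fold changes against vehicle of the 34 members and of 5 further lists at 48 h (left) and 96 h (right); filled points passed at an adjusted p below 0.05 and the bar is the list's median. The medians of the members are 0.54 and 0.34, those of the citric acid cycle 0.49 and 0.32, and those of the hypoxia-inducible factor targets -0.34 and -0.09.

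Among the 96 h animals, some members ran with markers of other cell types, a description made after the values were seen. TP16 had the lowest LDHA, TKT, PFKL and PDK4 of the 4 and the highest HK2, at 168 CPM against 83.9 to 115 CPM in the others. In the same animal the summed level of 3 endothelial markers was 38.02 CPM and that of 4 macrophage markers 79.5 CPM, each the lowest of the group. TP15 and TP17 held the highest of both sums, with 88.8 and 80.6 CPM for endothelial and 151 and 153 CPM for macrophage markers, and the highest LDHA and TKT. PDK4 was highest in TP18. Among vehicle animals TP09 had the highest endothelial sum but the lowest LDHA and TKT. The macrophage sum of vehicle animals was highest in TP11, at 92.1 CPM against 90.2 CPM in TP09. TP11 also had the highest LDHA and TKT of that group. Among the 48 h animals TP10 had the highest endothelial and macrophage sums, LDHA and TKT. Over the groups, the endothelial sum was 38.2 to 61.3 CPM in vehicle animals, 43.3 to 103 CPM at 48 h and 38.02 to 88.8 CPM at 96 h and the macrophage sum 44.95 to 92.1 CPM in vehicle animals, 57.1 to 92.6 CPM at 48 h and 79.5 to 153 CPM at 96 h. The sum of 5 peritubular myoid markers was 353 to 391 CPM in vehicle animals, 567 to 868 CPM at 48 h and 489.9 to 1124 CPM at 96 h, and that of 4 erythroid markers 31.9 to 122 CPM in vehicle animals, 25.9 to 157 CPM at 48 h and 125 to 425 CPM at 96 h. MYH11 made up most of the myoid sum in every animal and did not pass at 48 h or 96 h (edgeR adjusted p = 0.472 and 0.0679). Of these lists, 0 endothelial and 0 erythroid markers passed with edgeR at either time, 1 of 4 macrophage markers rose at 96 h, and 2 of 5 myoid markers rose at 48 h and 3 of 5 at 96 h. Their part in the member changes was not tested.

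Of the Leydig markers, 4 of 5 rose at both times, STAR among them at 21.6 ± 10.6 CPM in vehicle, 419 ± 122 CPM at 48 h and 314 ± 124 CPM at 96 h (edgeR adjusted p = 0.00127 and 0.00125). Of the Sertoli markers, 3 of 8 rose at 48 h and 4 of 8 at 96 h. CLDN11, of the Sertoli cell barrier, was at 58.8 ± 7.66 CPM in vehicle, 148 ± 40.4 CPM at 48 h and 142 ± 36.2 CPM at 96 h (edgeR adjusted p = 0.00723 and 0.00621), INHA, the inhibin alpha subunit, at 404 ± 44.2, 806 ± 159 and 549.8 ± 43.02 CPM (adjusted p = 0.00183 and 0.0406), and DHH, a hedgehog ligand, at 17.1 ± 1.22, 29.1 ± 5.22 and 23.5 ± 2.71 CPM (adjusted p = 0.00814 and 0.0459). SOX9 passed at 96 h (edgeR adjusted p = 0.041). Of 20 alternatives, the 96 h call was lost in 12 for SOX9, 13 for DHH, 9 for INHA and 0 for CLDN11. With age class as a block SOX9 and DHH had edgeR adjusted p = 0.214 and 0.16 at 96 h. The 48 h calls of CLDN11 and DHH were lost without both animals over 20 months (edgeR adjusted p = 0.0851 and 0.0976). FSHR, the FSH receptor, was at 56.2 ± 8.75 CPM in vehicle, 50.1 ± 6.35 CPM at 48 h and 64.3 ± 15.7 CPM at 96 h and did not pass (edgeR adjusted p = 0.632 and 0.499). Of the markers of dividing cells, 0 of 4 passed at 48 h and 4 of 4 rose at 96 h. These groups of markers moved beside the members, and their part in the member changes was not tested.

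Positions of the members on rheMac8 offered few shared neighbourhoods. GAPDH and TPI1 lie 399913 bases apart on chromosome 11, and LDHC and LDHA form the closest pair. PGK1 and PDK3 lie on the X chromosome. Further loci on the opposite strand carry the names MPC1 and PGLS, and both were scarce. The MPC1 antisense locus was at 1.57 ± 0.933, 0.429 ± 0.0292 and 0.938 ± 0.510 CPM in vehicle, 48 h and 96 h (edgeR adjusted p = 0.0342 and 0.25). It fell at 48 h while MPC1 on its own strand did not pass. The PGLS counterpart was at 3.02 ± 0.379, 2.07 ± 0.358 and 2.38 ± 0.490 CPM and did not pass (adjusted p = 0.172 and 0.314). The libraries are stranded, but the strand setting of the counting is not given in the sources used here. These loci were named after their values were seen.

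The authors' deposited table, made with another edgeR test, lists 19 members as raised and PDK4 as lowered at 48 h at an FDR below 0.05. At 96 h it lists 14 as raised and LDHC as lowered, and between 96 h and 48 h it lists GAPDH as lowered, with a log2 fold change of -0.54 and an FDR of 0.0413.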

How the data were processed

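Total RNA of 10 testes was sequenced as stranded libraries, per the labels' protocols. Per the submitters' processing notes, the upstream tools were edgeR, HTSeq 0.6.1p1, TopHat2 2.1.1, cutadapt 1.9.1, Cufflinks 2.2.1 and Bowtie2 2.2.8, and the build was rheMac8. The tests used the whole-number count of reads that the authors deposited for each locus. The deposited CPM columns are counts relative to the library total and were not used for tests. Deposited p-values, FDR and log2 fold changes are the authors' own and are quoted only where their table is named. The deposited transcript models gave positions and exon lengths as other, descriptive columns. Counting settings for strand and shared reads are not given in the sources used here.

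The main test was the quasi-likelihood test of edgeR 4.0.16 under R 4.3.3 (TMM, robust fit) in 1 model of group means over 10 libraries, adjusted by Benjamini-Hochberg over all 26813 loci at 0.05. The low-count filter of edgeR removed 0 loci. The biological coefficient of variation was 0.259. Library totals ran from 21824233 to 30375928 counts, so a floor of 3 counts is at most 0.137 CPM, which covers counting error only. The SE of a log2 fold change was derived from its F statistic, and edgeR's prior count shrinks the fold changes of low loci. The procedure was tested on simulated data. CPM values are TMM-scaled, RPKM divides them by the length of the union of exons, and paralog ratios were compared by two-sided exact permutation tests. Libraries are from separate animals and p-values refer to their spread; all replicate pairs differed by more than sampling noise. No column of the count table was without a sample in the labels (0 unmapped).

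The members and the accompanying lists were chosen with earlier results of these data known. Every found member is named. Each animal's value is given for members that passed with an absolute log2 fold change of at least 0.5 and for the LDH, PDK, PFKFB, HK and PFK families. Of an accompanying list, up to 4 genes with the smallest p that passed are named, except some that are not reported here. Alternatives were RLE and upper-quartile scaling, no count filter or a mean of at least 50 counts, DESeq2 1.42.0, exactTest, the compared groups alone, age class as a block, omission of both animals over 20 months, summed loci and omission of each animal, and for ratios transcript length and unscaled totals. The fit without a count filter equals the main fit. Transcript length and unscaled totals cannot change a group difference of a log2 ratio, so only omission of animals tests the ratios. Chromosome names were taken from symbols shared with the RefSeq gene table of assembly T2T-MMU8v2.0, and positions are those of the files. Tables and plots were made with scipy 1.17.1, pandas 2.3.3, matplotlib 3.10.9 and numpy 2.4.6 in Python 3.11.15.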

Additional observations from a re-analysis of the deposited data

Results flagged for a closer look

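PDHB, the beta subunit of pyruvate dehydrogenase, had a sample far from the others of its group. At 96 h TP15 was at 90.3 CPM, while TP16, TP17 and TP18 lay between 100.6 and 102.5 CPM. The gap from TP15 to the nearest animal took 0.845 of the group's range. A gap of this relative size is met by chance in about 1 in 20 groups, and 34 genes were examined at 96 h. TP15 still lay above the 3 vehicle animals.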

How the results depend on the processing

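Animal numbers are not shared between groups, so the labels state no pairing. Where age class was the block, TP07 and TP08, TP09 and TP10, and TP11 and TP12 share a class, so at 48 h it also blocks these neighbours. Members called higher at 48 h were 22 in that fit too, PFKM was called (adjusted p = 0.0286), and HK2, PFKL and TKT were not (0.633, 0.274 and 0.12). The lowest mean count of a member was 235, and whether depth limited the calls of scarce members was not tested. Each group holds 3 or 4 animals, and all 96 h animals are of 1 age. Fold changes were recomputed against vehicle for all members, and between 96 h and 48 h only for the 9 members without overlap. The fits include that without a count filter, which equals the main fit and so keeps every value. Of 1540 recomputed member fold changes, 1394 kept direction and side of the threshold, 100 lost their call, 27 gained one and 19 changed sign. The cause of these moves was not tested.

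Over all loci at 48 h, 3273 were called (2288 higher and 985 lower), against 850 without both animals over 20 months, 5079 with DESeq2 and 1564 to 3465 when single animals were left out. At 96 h, 4684 were called (2836 higher and 1848 lower), against 1762 with age class as a block, 1940 without both animals over 20 months and 2210 to 4685 with single animals left out. Between 96 h and 48 h, 286 were called, against 178 with age class as a block, 3 without both animals over 20 months, 900 with exactTest, 1827 with DESeq2 and 2 to 344 with single animals left out. Upper-quartile scaling turned the split to 1392 higher and 1732 lower at 48 h and to 1687 higher and 3532 lower at 96 h. The median of all loci was then -0.20 at 48 h (-0.07 with TMM) and -0.16 at 96 h (-0.01 with TMM). Member medians fell with it from 0.54 to 0.414 and from 0.341 to 0.193. Relative to the median of all loci they were 0.61 and 0.61 at 48 h and 0.35 and 0.35 at 96 h, with TMM and upper-quartile scaling in turn. A change of library scaling shifts all loci nearly alike, so this equality was fixed in advance and is no check of the members.

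Members higher at 48 h were 22, and 14 with upper-quartile scaling, 10 without both animals over 20 months and 11 to 23 with single animals left out. Members lower at 48 h were 0, and 1 (PDK4) with a mean of at least 50 counts, exactTest or DESeq2 and 0 to 1 with single animals left out. Members higher at 96 h were 10 with age class as a block. Members lower at 96 h were 1, and 2 with upper-quartile scaling, 0 with age class as a block or without both animals over 20 months and 0 to 1 with single animals left out. Between 96 h and 48 h, 3 members were lower with exactTest and 5 with DESeq2.

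Signs turned where values were small. PFKP at 48 h became 0.086 without TP07 and 0.033 without TP12. PDK1 at 48 h became -0.011 with upper-quartile scaling and ran from -0.014 (without TP08) to 0.212 with single animals left out. HK2 at 96 h became 0.102 with age class as a block and 0.058 without both animals over 20 months, and ran from -0.398 to 0.058 (without TP07) with single animals left out. PFKM at 96 h became 0.049 and 0.017 under the former settings and ran from -0.105 to 0.017 (without TP07). ENO1 at 96 h became -0.130 with upper-quartile scaling, -0.027 with a mean of at least 50 counts and -0.021, -0.016 and -0.013 without TP11, TP16 and TP18, with 0.065 the highest when an animal was left out. PDK1 at 96 h became -0.110 and -0.006 under those scaling and count settings and -0.072 and -0.065 without TP09 and TP16, with 0.132 the highest when an animal was left out. With single animals left out, the log2 ratio of PFKM to PFKL at 48 h ran from -0.211 to 0.154, LDHB to LDHA at 48 h from -0.362 to 0.153, LDHC to LDHA between 96 h and 48 h from -0.492 to 0.151 and HK2 to HK1 between 96 h and 48 h from -0.23 to 0.277.

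For the accompanying lists at 48 h, without both animals over 20 months 0 carriers, 0 other carbohydrate enzymes and 0 hypoxia-inducible factor targets fell, and 7 citric acid cycle genes and 3 regulators rose. With DESeq2 2 carriers and 6 other enzymes rose, and 0 carriers fell with a mean of at least 50 counts or age class as a block. At 96 h 0 carriers fell with a mean of at least 50 counts, the compared groups alone, age class as a block or without both animals over 20 months, and 2 with summed loci. Other enzymes that rose at 96 h were 2 with upper-quartile scaling, age class as a block or without both animals over 20 months, and 1 fell in the latter pair of fits. Citric acid cycle genes that rose were 4, 5 and 6 in those fits. Factor targets that fell were 3 with the compared groups alone, 1 with age class as a block and 2 without both animals over 20 months, and 1 carrier rose in the last. With single animals left out at 48 h, carriers rose in 1 to 2 genes and fell in 0 to 1, other enzymes fell in 0 to 1 and factor targets in 1 to 3. At 96 h carriers rose in 1 to 3 and fell in 0 to 1, other enzymes rose in 2 to 4 and fell in 1 to 3, citric acid cycle genes rose in 5 to 9 and factor targets fell in 2 to 5.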

Other observations

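Other genes known from the energy supply of sperm were measured at low levels and are described after their values were seen. ENO4, an enolase of the sperm tail, was at 2.94, 1.796 and 1.84 CPM in vehicle animals, 1.69, 1.52 and 2.49 CPM at 48 h and 0.678, 1.302, 0.607 and 1.25 CPM at 96 h. All 96 h animals lay below all vehicle animals. ENO4 fell at 96 h and did not pass at 48 h, with -0.21 ± 0.35 at 48 h (edgeR adjusted p = 0.739) and -1.17 ± 0.34 at 96 h (adjusted p = 0.0365). The 96 h call was lost with age class as a block (adjusted p = 0.268) and without both animals over 20 months (0.18), among other settings. LDHAL6B, a testis form of lactate dehydrogenase, was at 1.55, 2.32 and 2.04 CPM in vehicle animals, 1.55, 1.23 and 2.01 CPM at 48 h and 1.501, 0.579, 0.658 and 1.49 CPM at 96 h. Its 96 h animals lay below all vehicle animals, and it gave -0.30 ± 0.38 at 48 h (edgeR adjusted p = 0.65) and -0.89 ± 0.36 at 96 h (adjusted p = 0.11). LDHC, the more abundant germ cell form, fell at 96 h as well. PGK2, GAPDHS and PDHA2, further forms of germ cells, are not analysed here.

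ENO2, the neuronal enolase, shares a locus with LRRC23, and their reads cannot be divided. The joint locus was at 6.75 ± 1.71 CPM in vehicle (SD, n = 3), 6.59 ± 0.612 CPM at 48 h (n = 3) and 5.41 ± 0.617 CPM at 96 h (n = 4). The test was not passed at either time, the log2 fold changes being -0.04 (edgeR adjusted p = 0.934) and -0.32 (adjusted p = 0.292).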
